A study of Schizosaccharomyces pombe with 20 samples.

Results

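The splicing of fission yeast cells that lack pwi1 was described from 2 splicing-sensitive microarrays, out of 20 arrays in the series. All exon, intron and junction probes with a value on both pwi1 arrays were taken, which gave 4717 of 5098 exon probes, 1866 of 4885 intron probes and 4202 of 4694 exon-exon junction probes. An intron whose own intron probe and own junction probe were both measured on both arrays is called an event here, and 1629 of 4673 events met this requirement. A further 1037 events had a value on only 1 of the 2 arrays and 2007 on none.

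The series compared 12 Schizosaccharomyces pombe deletion strains with wild type, each strain on its own 2-colour arrays, 8 of them in a pair of arrays and 4 on a single array. The pwi1 strain carried ΔSPCC825.05c-KanR, a deletion of the gene marked with kanamycin resistance, and came from the Bioneer haploid deletion collection. The wild type was given as the Bioneer strain ED666, and whether every array used the same reference was not tested. All other tested strains (aar2, ash2, ctr1, pht1, ppn1, smd3, SPAC18G6.13, SPAC20H4.06c, SPCC162.01c, ssu72 and swd1) were KanR deletions from the same collection, so the marker was common to every deletion strain. Cells grew in 25 ml of rich YES medium without further treatment and were collected in mid-log phase at an optical density near 0.5. The 2 pwi1 replicates were cultures grown separately from 1 strain. RNA of the deletion strain was always labelled with Cy3 and wild-type RNA with Cy5, with no dye swap, so an effect of the dye on a probe is part of each value set against wild type. Such an effect would be shared by the arrays of all strains, and it cancels in the difference between strains.

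Pwi1 is the fission yeast relative of human SRRM1 (SRm160), an SR-related protein with a PWI nucleic acid-binding domain that acts as a coactivator of pre-mRNA splicing. Human SRRM1 bridges SR proteins bound to exonic enhancers and the snRNPs on the splice sites. Budding yeast has no clear counterpart, whereas fission yeast has many genes with several short introns and SR proteins of its own. On the arrays an intron probe reads unspliced pre-mRNA, a junction probe reads the mature mRNA made by removal of that intron, and an exon probe reads total mRNA of the gene. Each value is the deposited log2 ratio of the deletion strain over wild type. The splicing ratio of an event was the log2 value of its intron probe minus that of its junction probe on the same array, so a positive value means more unspliced relative to spliced RNA in the deletion strain.

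The deleted gene was read first. The exon probe of pwi1 read -2.81 and -4.04 on replicates 1 and 2, against -1.38 to 0.39 on the 18 arrays of the other strains. Both arrays of the pwi1 strain lay below all others, with a mean of -3.43 ± 0.23 (SE, n = 2, limma adjusted p = 1.61e-05). The 3 junction probes of pwi1 averaged -2.36, -2.17 and -2.63, with adjusted p-values of 2.65e-04, 0.0037 and 5.80e-05. Of its 3 intron probes only the third had a value, -0.46 on replicate 2.

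The replicates were not alike in every respect. The exon probe of ura4, a uracil biosynthesis gene used as a selection marker in laboratory strains, read -0.45 on replicate 1 and -6.49 on replicate 2, against -7.07 to -4.36 on the 17 other arrays with a value. The mating-type gene mat3-Mc read -0.40 on replicate 1 and -4.32 on replicate 2, and the exon probes of mat1-Mc and mfm2 (an M-factor pheromone precursor gene) had no value on replicate 1 and read -4.15 and -5.12 on replicate 2. Replicate 1 therefore stood apart from nearly all other arrays at ura4 and mat3-Mc, while replicate 2 lay among them. On replicate 2 and most other arrays the deletion strain thus read far below wild type at genes other than the one named as deleted. Smaller gaps between the replicates were read at leu1 (-0.30 on replicate 1 and 0.94 on replicate 2), lys1 (-0.57 and 0.99) and his3 (-0.02 and 0.73). Which replicate had the better matched wild type was not tested. The array labelled smd3 replicate 1 also stood apart, at 0.07 for mat3-Mc, -0.32 for mat1-Mc and -0.21 for mfm2, and had no value for ura4. Whether the 2 pwi1 arrays shared 1 isolate and 1 wild-type reference was not tested. In all, 13 exon probes differed by more than 2 between the replicates. With smd3 replicate 1 left out of the other arrays, replicate 2 was nearer their median for 12 of the 13. Replicate 1 also had the narrower spread of exon values, with an SD of 0.286 on replicate 1 and 0.498 on replicate 2. The main values below are therefore given for both replicates, and the main counts are repeated without each replicate in turn.

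Some other arrays went against their labels. The exon probe of the gene named as deleted read -0.50 and -0.93 on the smd3 arrays, -0.41 and -0.26 on the SPAC18G6.13 arrays, 0.59 on the SPCC162.01c array and -0.86 on ctr1 replicate 2, against -6.45 to -1.19 on the other 14 arrays, those of pwi1 included. These 6 libraries are named below by their labels only, and the comparisons with other strains were repeated without them.

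Introns as a whole were read slightly higher on the pwi1 arrays, and mature mRNA slightly lower. The median splicing ratio over the 1629 events was 0.26 on replicate 1 and 0.58 on replicate 2, and 66.7% of the events lay above 0 on both arrays. The median intron probe read 0.19 and 0.42, the median junction probe -0.05 and -0.11, and the median exon probe -0.02 on both arrays. The replicates followed each other for the ratio (Pearson r = 0.75 across events) more closely than for total mRNA (r = 0.41 across genes), which is a description, since the events of an array are not independent.

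By limma with Benjamini-Hochberg adjustment over all events, the splicing ratio rose for 238 of 1629 events (14.6%) in 214 genes and fell for 3 (0.184%) at an adjusted p under 0.05. At an unadjusted p under 0.05 the ratio was higher for 485 events and lower for 11. With replicate 2 alone, after replicate 1 was left out, 40 events rose, and with replicate 1 alone 43 rose. No event fell in either case, and the single remaining array is then assumed to vary like the arrays of the other strains. Without the 6 arrays that went against their labels, 510 events rose and 9 fell.

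A few introns went far beyond this general level. Of the 238 events that rose, 34, in 34 different genes, had a mean splicing ratio of at least 2, a 4-fold excess of the intron over its junction (2.09% of the events tested). They are called strongly retained here. They were chosen by this ratio, so their ratios and their intron and junction values describe them and are not a further test. The median of the 34 was 2.93 (range 2.02 to 5.51), against 0.41 over all events. At a minimum of 1.5 in place of 2 there were 85 such introns and at 2.5 there were 22. The 4 lowest inside the limit were ptb1 intron 5 (2.09), msw1 intron 2 (2.06), mcp7 intron 1 (2.05) and nxt2 intron 2 (2.02), and the 4 highest below it were rpb1 intron 3 (1.98), scs2 intron 1 (1.97), cds1 intron 4 (1.94) and sac3 intron 3 (1.92).

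Each replicate found largely the same introns. Of the 42 events with a ratio of at least 2 on replicate 1, 29 also reached 2 on replicate 2 and 41 reached 1, with a median there of 2.24. Of the 39 events at 2 or more on replicate 2, 29 also reached 2 on replicate 1 and 35 reached 1, with a median there of 2.74, while 2 lay below 0. Intron 1 of tom20, a gene of the mitochondrial protein import receptor, was the 1 event with a mean of 2 or more that was not called. Its ratio was 0.88 on replicate 1 and 4.46 on replicate 2 (adjusted p = 0.051), and the median of the 18 other arrays was 4.50. Intron 1 of mug74 likewise read -0.56 on replicate 1 and -4.56 on replicate 2, with a median of -3.50 over 17 other arrays. The highest of these was smd3 replicate 1, at 0.17. At both loci replicate 1 stood apart from most other arrays, as it did at ura4, whereas replicate 2 did not.

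**Figure D1:**
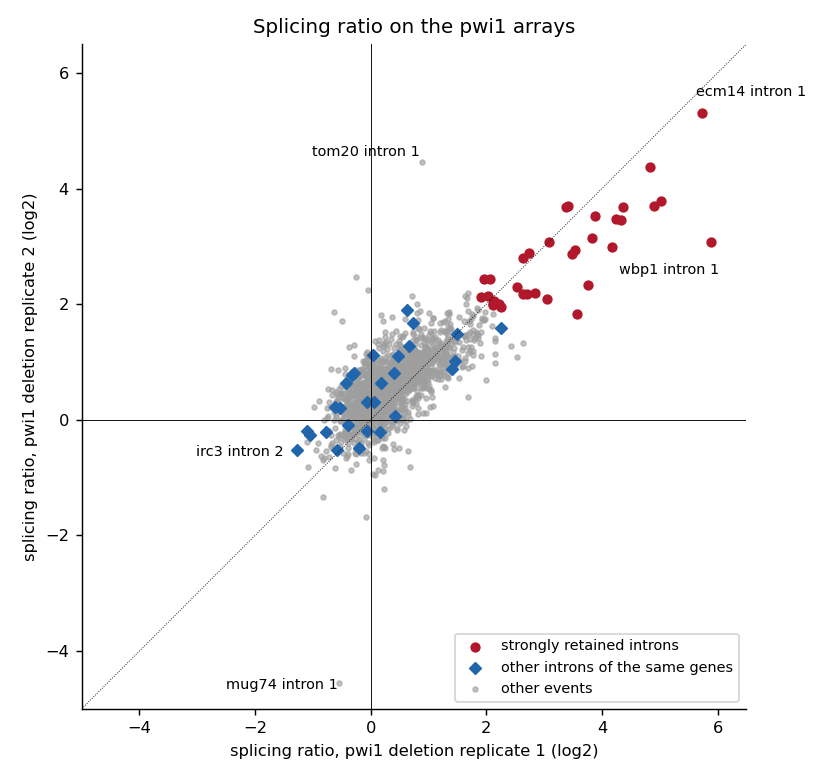
Splicing ratio (log2, intron minus junction probe) on pwi1 replicate 1 (x axis) against replicate 2 (y axis) for the 1629 events. Red circles are the 34 strongly retained introns, blue diamonds the 28 other introns of the same genes with a value on both arrays, grey points all other events, and the dotted line marks equal values. The red points run up to ecm14 intron 1 near the line at the top right, and tom20 intron 1 and mug74 intron 1 lie far from it.

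The strongly retained introns belonged to genes of unlike function. The most retained of all lay in ecm14, a gene of the zinc carboxypeptidase family with 4 introns. Its intron 1 had splicing ratios of 5.72 on replicate 1 and 5.30 on replicate 2, a mean of 5.51 ± 0.28 (SE, n = 2, adjusted p = 3.50e-09) or 45.6-fold. Its intron probe read 4.23 and 4.46 and its junction probe -1.49 and -0.84. Both parts of the ratio thus moved, and the intron probe moved more.

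Among genes of membrane and secretory proteins, intron 1 of wbp1, a subunit of the oligosaccharyltransferase that N-glycosylates proteins in the endoplasmic reticulum, had ratios of 5.89 and 3.08 (mean 4.48 ± 0.58, adjusted p = 1.82e-04). Intron 2 of gup1, a membrane-bound O-acyltransferase gene, had ratios of 5.03 and 3.78. The replicates lay far apart for wbp1, whose lower value still exceeded the 2.80 of the highest other array. Intron 5 of ptb1, a subunit of an enzyme that attaches isoprenoid lipid to Rab proteins, had lower ratios of 2.03 and 2.15.

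Genes of the DNA damage response, replication and chromosome cohesion followed. Intron 1 of rad17, which loads the 9-1-1 checkpoint clamp, had ratios of 4.36 and 3.68 (mean 4.02 ± 0.31, adjusted p = 1.41e-06), with intron values of 2.54 and 2.67 and junction values of -1.82 and -1.02. Intron 6 of chk1, the checkpoint effector kinase, had ratios of 2.71 and 2.18. Intron 1 of mcl1, the relative of Ctf4 that links the DNA polymerase alpha complex to the replication fork, had ratios of 2.63 and 2.18. The rad17 intron stood clear of these 2 on both arrays. Intron 2 of ssl3, a subunit of the cohesin loader, had ratios of 3.05 and 2.09, and intron 1 of mcp7, a meiotic recombination gene related to Mnd1, had 2.11 and 1.98.

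Iron-sulfur cluster assembly and mitochondrial genes included several with large values. Intron 3 of mms19, of the cytosolic iron-sulfur protein assembly machinery, had ratios of 4.90 and 3.69. Intron 3 of irc3, whose budding yeast relative is a mitochondrial helicase, had 4.33 and 3.46. Intron 3 of icp55, a mitochondrial aminopeptidase gene with 11 introns, had 3.38 and 3.67. The icp55 event differed from mms19 and irc3 in its make-up, since its junction probe read -2.11 and -2.07, the lowest of the 34, and its intron probe only 1.27 and 1.60. Intron 1 of gta1, a subunit of the mitochondrial glutamyl-tRNA amidotransferase, was similar, with ratios of 2.63 and 2.80 from intron values of 1.0765 and 1.31 and junction values of -1.55 and -1.49. Intron 2 of atp20, an ATP synthase subunit gene, had ratios of 1.96 and 2.43, and intron 2 of msw1, a mitochondrial tryptophanyl-tRNA synthetase gene, had 2.12 and 2.003.

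Autophagy and protein turnover genes were also present. Intron 2 of atg3, the E2-like enzyme that conjugates Atg8 to lipid, had ratios of 3.88 and 3.52 (mean 3.70 ± 0.26, adjusted p = 1.21e-06). Intron 2 of atg5, part of the E3-like complex of the same conjugation step, had 2.26 and 1.95. Intron 2 of pca1, the metacaspase gene, had 3.56 and 1.83, and intron 1 of ubp9, a ubiquitin protease gene, had 2.54 and 2.29. The replicates lay close together for atg3, atg5 and ubp9 and far apart for pca1.

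Genes of transcription, RNA processing and nuclear transport made up another part. Intron 1 of tfa1, the large subunit of the general transcription factor TFIIE, had ratios of 4.17 and 2.99. Intron 1 of sme1, the SmE protein common to the spliceosomal snRNPs, had 3.76 and 2.33 (mean 3.04 ± 0.42, adjusted p = 6.63e-04). Intron 5 of ysh1, the endonuclease of mRNA 3′ end cleavage, had 2.84 and 2.19. All 3 were higher on replicate 1. Lower ratios were found for intron 1 of sac3 of the TREX-2 export complex (2.06 and 2.44) and for 3 further introns. These were intron 1 of taf13 of TFIID (2.23 and 2.004) and intron 1 of mcs2, the cyclin of the CDK-activating kinase (2.13 and 2.05). The last was intron 2 of nxt2, a nuclear transport gene (1.91 and 2.13).

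The remaining 8 were of mixed or uncertain function. SPBC21B10.09 intron 2 had ratios of 4.83 and 4.38 (mean 4.61 ± 0.28, adjusted p = 1.58e-06), the second highest mean of the 34. The ratios of ucp12 intron 3 were 4.24 and 3.48, those of mug64 intron 2 (a gene named for upregulation in meiosis) 3.42 and 3.70, and those of mks1 intron 1, the only intron of its gene, 3.83 and 3.14. Ratios of twf1 intron 5, in the gene of the actin-binding protein twinfilin, were 3.49 and 2.87, those of dca7 intron 4 were 3.53 and 2.94, those of nSPAC6F6.16c intron 2 were 3.09 and 3.07, and those of wdr7 intron 2 were 2.74 and 2.88. The lowest of these values was the 2.74 of wdr7 on replicate 1.

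The lowest ratio of any of the 34 on a single array was the 1.83 of pca1 intron 2. Without replicate 1, 31 of the 34 were still called, and without replicate 2, 31 were. Among the 20 with the largest mean, only sme1 intron 1 was lost, without replicate 1 (2.33, adjusted p = 0.069).

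The neighbouring introns of the same genes had far lower ratios. The 34 genes held 82 other events, of which 28, in 21 genes, were measured on both arrays. The median splicing ratio of these 28 was 0.20 (range -0.90 to 1.92), against 2.93 for the strongly retained introns of the 34 genes and 0.41 over all events. The ratio rose for 5 of the 28 and fell for 1, beside 238 and 3 of the 1629 events (14.6% and 0.184%). The share that rose was near that of introns in general, while 1 fall is too few to compare. The ratio was below 0 on average for 11 of the 28 (39.3%), against 17.1% of all events. It was below 0 on both arrays for 8 of the 28, against 135 of the 1629. The difference between the retained intron and the highest of its measured neighbours had a median of 2.96 over the 21 genes. It was over 2 in 15 genes and over 1 in 17, and it was smallest in sac3, at 0.33. The retained introns were chosen for a high ratio and the neighbours are the events outside that choice. The choice thus favours a positive difference, which is a description and not a test. The 54 other events of these genes that lacked a value on an array were not compared, so a second strongly retained intron among them would not be seen.

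Genes with several measured introns showed the contrast within 1 transcript. In irc3, against ratios of 4.33 and 3.46 for intron 3, intron 1 read -0.06 and -0.20, intron 2 read -1.27 and -0.53, and intron 4 read -0.40 and -0.09. Intron 2 of irc3 was 1 of the 3 events in the data set that fell (mean -0.90 ± 0.27, adjusted p = 0.034). Its immediate neighbour thus had the opposite sign on both arrays, but the call of the fall was lost without either replicate (adjusted p = 0.40 without replicate 1 and 0.094 without replicate 2). The junction probes of irc3 introns 1, 2 and 4 read between 0.51 and 0.78 on both arrays, while that of intron 3 read -1.29 and -0.74.

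A like picture was found in 3 other genes. In wbp1, intron 1 read 5.89 and 3.08, against values between -0.62 and 0.31 for introns 2 and 3. In mms19, intron 3 read 4.90 and 3.69, against values between 0.07 and 0.80 for introns 1 and 2. In pca1, intron 2 read 3.56 and 1.83, against values between -1.05 and -0.21 for introns 1 and 4. None of these 6 neighbours was called. Those of pca1 lay below 0 on both arrays.

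The 2 other genes with more than 1 measured neighbour were less clear-cut. In icp55, introns 7 (0.04 and 1.11) and 9 (0.47 and 1.11) were not called, but intron 6 read 3.19 on replicate 1, the only array with a value, and its junction probe fell (-0.97 and -0.66, adjusted p = 0.045). This gene thus held a second intron of high ratio on the array that measured it. In nSPAC6F6.16c, against 3.09 and 3.07 for intron 2, intron 3 read 1.45 and 1.02 (adjusted p = 0.028) and intron 4 read 1.41 and 0.87 (adjusted p = 0.056). Here the neighbours lay above the median of all events.

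Among the 15 genes with 1 measured neighbour the neighbour was low in most. The neighbours of the strongly retained introns of ecm14, SPBC21B10.09, gup1, tfa1, mug64, dca7, twf1, ysh1, chk1 and mcl1 had means between -0.64 and 0.41, and none of them was called. By contrast the neighbour was itself raised in sac3 (intron 3, 2.25 and 1.59, adjusted p = 7.79e-04), atg5 (intron 3, 1.49 and 1.49, adjusted p = 0.010), msw1 (intron 1, 0.74 and 1.68, adjusted p = 0.049) and nxt2 (intron 3, 0.62 and 1.90, adjusted p = 0.035). In taf13 intron 2 had ratios of 0.66 and 1.27 and was not called (adjusted p = 0.13). In these 4 genes the strongly retained intron itself was among the lower ones, with means between 2.02 and 2.25.

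**Figure D2:**
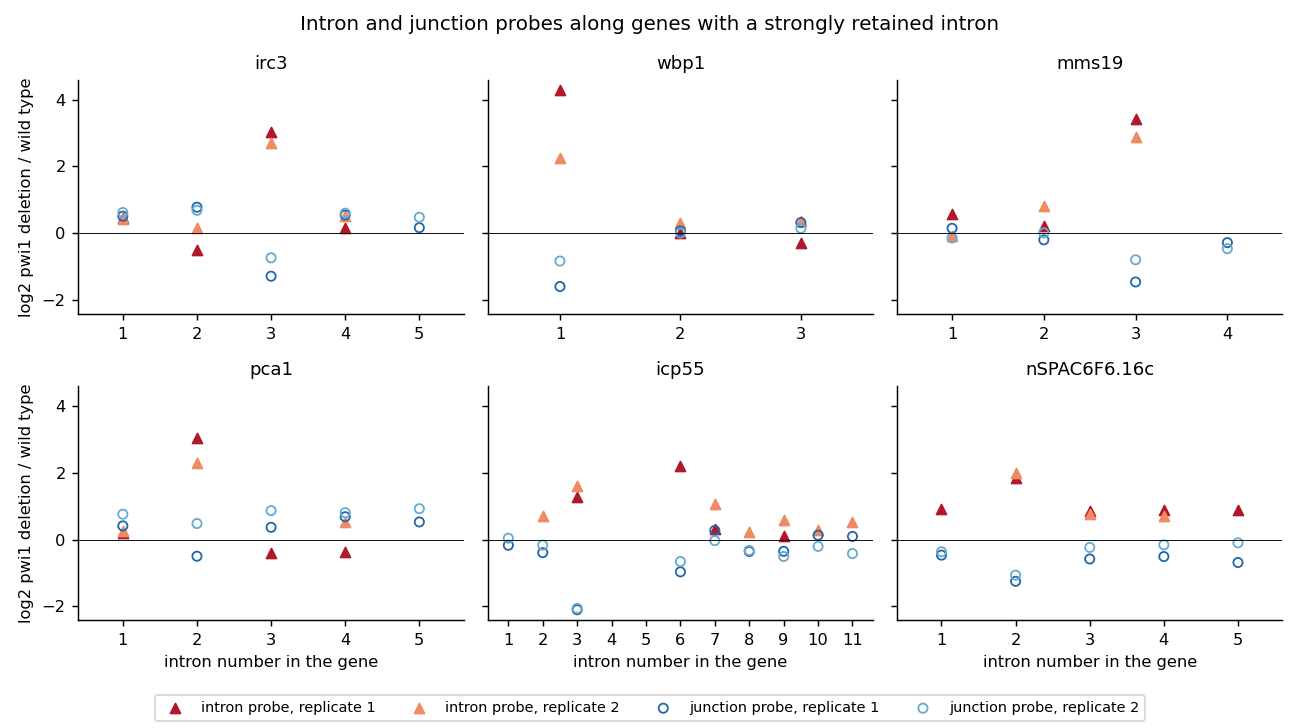
Intron probes (filled triangles) and junction probes (open circles) of 6 genes with a strongly retained intron and 2 or more measured neighbours, as log2 pwi1 deletion over wild type (y axis) by intron number in the gene (x axis), on replicate 1 (dark) and replicate 2 (light). In irc3, wbp1, mms19 and pca1 the intron probes stand high at 1 intron and stay between -0.50 and 0.81 at its neighbours, whereas in nSPAC6F6.16c the neighbours lie between 0.71 and 0.91.

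Both sides of the ratio contributed. The intron probes of the 34 strongly retained introns had a median of 2.28 (range 0.92 to 4.35) and were above 0 on both arrays for all 34. Pre-mRNA rose for 212 of 1866 introns (11.4%) and fell for 0 (0.0%), with 504 higher and 7 lower at an unadjusted p under 0.05. Of the 34, 33 were called, the exception being taf13 intron 1 (adjusted p = 0.061). Without replicate 1, 37 of 1866 introns rose, and without replicate 2, 40 rose. The 31 other introns of the same genes with an intron value on both arrays had a median of 0.44, of which 2 rose, against 0.31 for all introns.

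Junction probes of the 34 had a median of -0.70 (range -2.09 to 0.07), and 31 lay below 0 on both arrays. Mature mRNA fell for 36 of 4202 junctions (0.857%) and rose for 13 (0.309%), with 472 lower and 202 higher at an unadjusted p under 0.05. Of the 34, 12 fell. Without replicate 1, 3 junctions fell and 0 rose, and without replicate 2, 9 fell and 2 rose, while with the replicate number as a block 167 fell and 54 rose. The 81 other junctions of the same genes had a median of 0.04, of which 3 rose and 1 fell, against -0.08 for all junctions. The low values were read at the junctions of the retained introns, which the choice by the ratio favours. The other junctions of these genes lay around 0 as a group.

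The 12 junctions that fell included those of icp55 intron 3 (-2.09 ± 0.12, adjusted p = 4.00e-06), gta1 intron 1 (-1.52 ± 0.15, adjusted p = 0.0012), rad17 intron 1 (-1.42 ± 0.22, adjusted p = 0.0074), wbp1 intron 1 (-1.22 ± 0.18, adjusted p = 0.0054) and ecm14 intron 1 (-1.16 ± 0.15, adjusted p = 0.0037). For 11 events of the whole set the intron probe rose and the junction probe fell, both past the test, and all 11 were strongly retained introns. Both changes raise the ratio by which those introns were chosen, so this overlap is a description. At the other end the junctions of atg3 intron 2 (-0.15 and 0.28), twf1 intron 5 (-0.12 and 0.12) and pca1 intron 2 (-0.50 and 0.48) lay around 0, although their intron probes read 3.74 and 3.80, 3.37 and 2.98, and 3.06 and 2.31. A high intron signal therefore stood beside junction values on both sides of 0 in these 3, and beside a fall of the junction in icp55, gta1 and rad17.

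**Figure D3:**
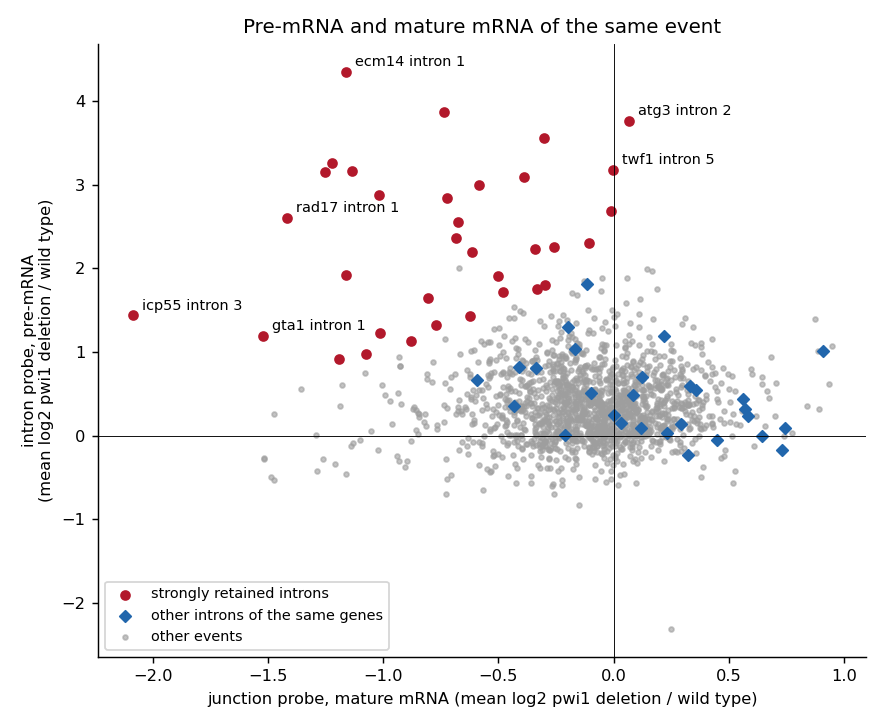
Mean log2 pwi1 deletion over wild type of the intron probe (y axis, pre-mRNA) against the junction probe of the same event (x axis, mature mRNA) for the 1629 events. Red circles are the 34 strongly retained introns, with junction means between -2.09 and 0.07, blue diamonds the 28 other introns of the same genes, and grey points the other events.

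Some introns were high by the intron probe without a complete ratio. Of the 24 introns that rose by at least 2 on the intron probe, 20 were strongly retained, and the other 4 had no splicing ratio on both arrays. The intron probes of these 4 read 3.41 and 3.25 for irc20 intron 2 (its budding yeast relative is a ubiquitin ligase), 3.26 and 2.83 for mpc1 intron 1 (a mitochondrial pyruvate carrier gene), 2.98 and 3.003 for SPAC26F1.08c intron 1, and 2.09 and 2.12 for ppk6 intron 1, a protein kinase gene. All were called, with adjusted p-values between 4.33e-07 and 1.90e-04. On replicate 1 the splicing ratio of irc20 intron 2 was 4.10 and that of SPAC26F1.08c intron 1 was 5.02. In all, 8 of the 1037 events with a ratio on a single array reached 2 on it, 5 on replicate 1 and 3 on replicate 2, and those on replicate 2 included intron 3 of the deleted gene itself (2.59).

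By place in the gene, the 34 comprised 14 internal introns (41.2%, against 26.5% of all events tested), 11 first introns of several (32.4%, against 23.4%), 7 last introns of several (20.6%, against 27.3%) and 2 single introns (5.88%, against 22.8%). The median number of introns per gene was 3 both for the strongly retained and for all events. These shares are a description, since the 34 were chosen by their values.

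The other strains were then read at the same 34 introns. The median ratio there was 2.93 in pwi1, and in the other strains it lay between 0.08 in swd1 and 1.77 in the arrays labelled smd3. It was 0.35 in aar2 (31 introns measured) and 0.19 in SPCC162.01c (34 measured). By the mean of each strain, only smd3 (8 of 24) and SPAC18G6.13 (3 of 23) had any of these introns at 2 or more. Among the highest other arrays of each intron, it was also reached by ctr1 replicate 1, at mks1 intron 1 (2.02). Lower-ranked single arrays were not listed 1 by 1. For mcp7 intron 1, 6 other arrays reached at least the lower pwi1 value of 1.98. For 24 of the 34 introns no other array reached the lower of the pwi1 values, and these 24 included the 20 with the largest mean. The number of other arrays with a value was between 4 and 18 for each intron. The highest other array was an smd3 array for 26 of the 34. The values of ecm14 intron 1 on the 18 other arrays lay between -1.19 and 0.85, with a median of -0.02, against 5.72 and 5.30 on the pwi1 arrays. Intron 3 of irc3 (-0.44 to 0.83 on 15 arrays) and intron 3 of icp55 (-0.75 to 0.68 on 16 arrays) likewise stayed under 1 everywhere else. For the lower members, such as mcp7 intron 1 (highest other array 3.60), atp20 intron 2 (4.13) and atg5 intron 2 (3.24), an smd3 array lay above both pwi1 values.

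**Figure D4:**
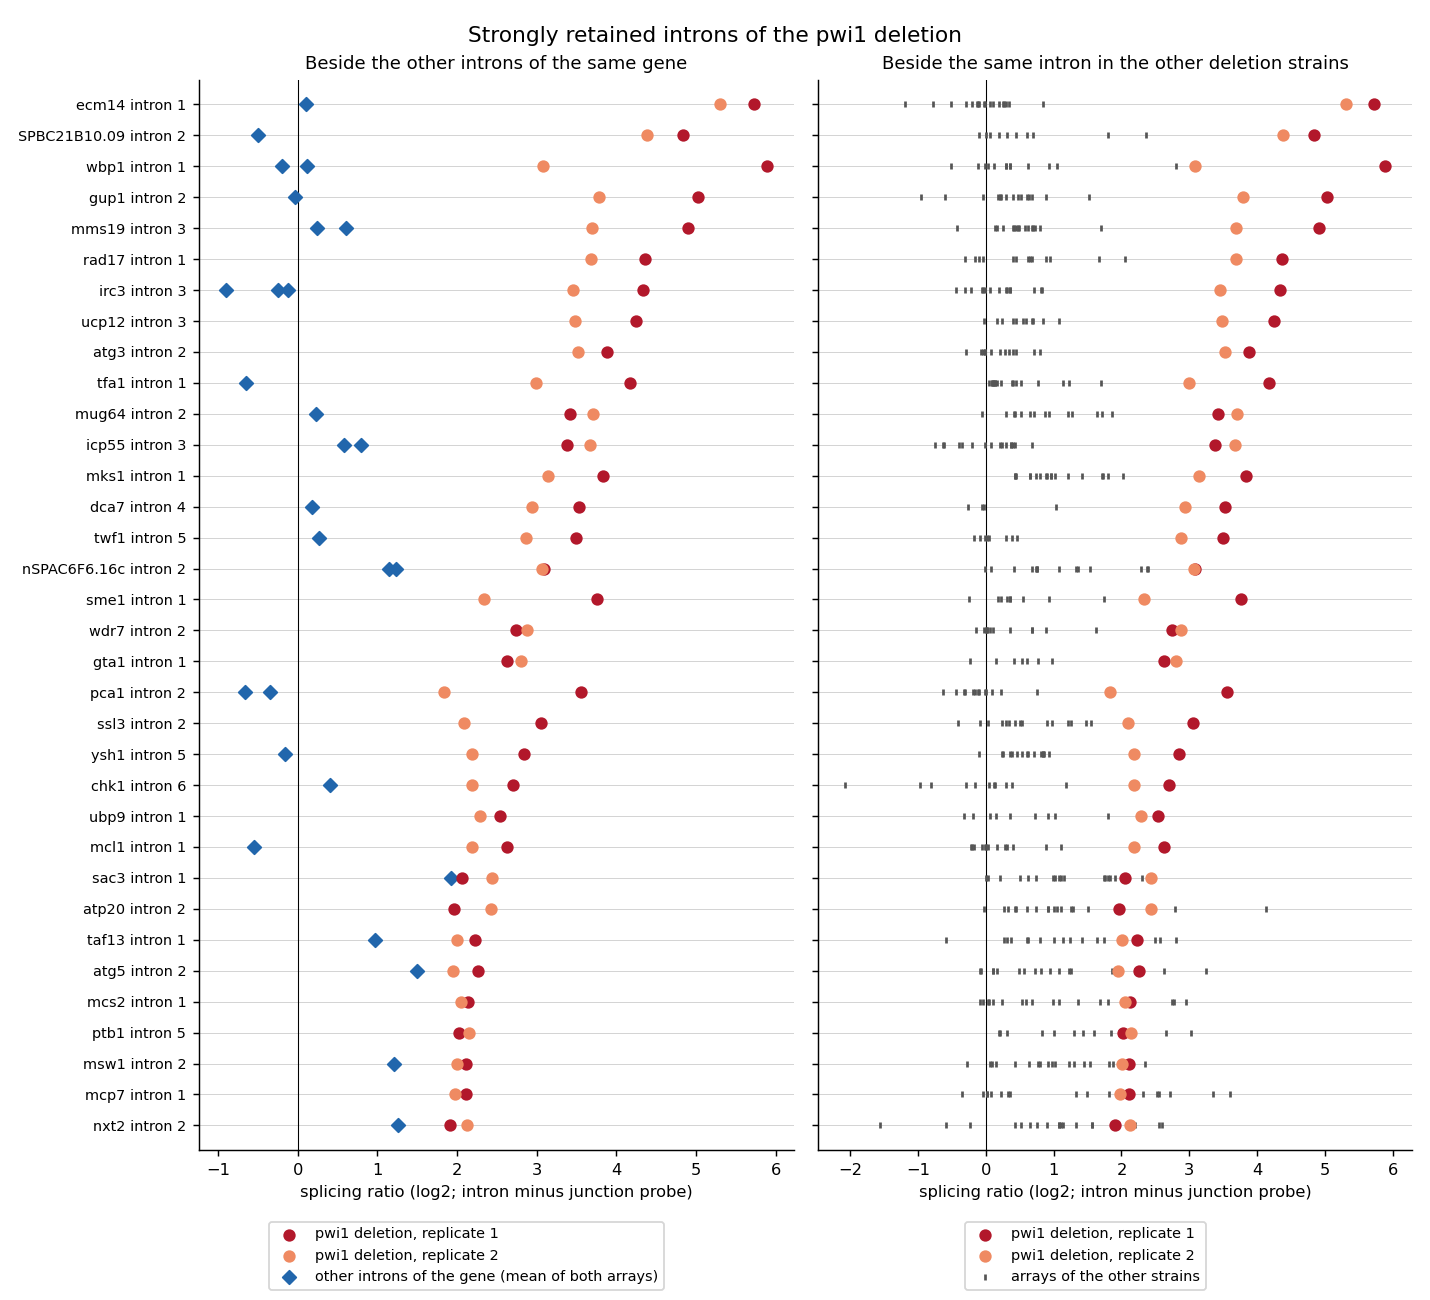
Splicing ratio (log2, x axis) of the 34 strongly retained introns, 1 per line in order of mean, on pwi1 replicate 1 (red) and replicate 2 (orange). The left panel adds the means of the measured other introns of the same gene (blue diamonds) and the right panel the same intron on each array of the other 11 strains (grey ticks). In the right panel the grey ticks stay below both pwi1 points for 24 of the 34 introns, while in 8 of the lowest 9 lines at least 1 tick passes both.

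The small general shift was not particular to pwi1. The median splicing ratio was above 0 in all 12 strains, over those of the 1629 events measured on every array of the strain. It lay between 0.16 in ash2 and 1.14 in smd3, with 0.41 in pwi1 and 0.45 in aar2. The contrast of pwi1 minus the mean of the other strains had a median of -0.02 over the 1629 events. In this contrast the ratio was higher in pwi1 for 35 events (2.15%) and lower for 1 (0.0614%), with 100 higher and 15 lower at an unadjusted p under 0.05. Without replicate 1, 16 events were higher, without replicate 2, 23 were, and without the 6 arrays that went against their labels, 74 were. All 35 were among the 238 events that rose, and 26 of them were strongly retained introns. The contrast shares its pwi1 values with the choice of those introns, so this overlap is a description. The 8 strongly retained introns not called in it (sac3, atp20, taf13, mcs2, ptb1, msw1, mcp7 and nxt2) had differences between 0.67 and 1.32.

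The largest differences were 5.55 ± 0.29 for ecm14 intron 1 (adjusted p = 7.42e-09), 4.07 ± 0.31 for SPBC21B10.09 intron 2, 4.02 ± 0.37 for gup1 intron 2 and 4.01 ± 0.62 for wbp1 intron 1. Every intron among the 20 with the largest mean ratio was called, with differences of at least 2.07. Of the other strains named in the contrast, between 4 and 11 had a value for each of these 20 introns. Below the limit of 2, the events also higher in pwi1 than in the other strains were ers1 intron 7 (2.42 and 1.28), sac3 intron 3 (2.25 and 1.59), mis18 intron 2 (1.77 and 1.55), rgf2 intron 2 (1.68 and 1.87), rrp17 intron 1 (1.63 and 2.15), mtq2 intron 2 (2.15 and 1.42), trt1 intron 13 (1.77 and 1.48), cds1 intron 4 (1.69 and 2.19) and rpb9 intron 3 (1.81 and 1.42). They included genes of RNA interference (ers1), the centromere (mis18), the telomerase catalytic subunit (trt1), the replication checkpoint kinase (cds1) and RNA polymerase II (rpb9). The 1 event lower in pwi1 than in the other strains was irc3 intron 2 (-1.18, adjusted p = 0.041), a call lost without either replicate.

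Against aar2 alone, a deletion of a U5 snRNP assembly factor with a pair of arrays and a like general shift, the ratio was higher in pwi1 for 21 of 1520 events (1.38%) and lower for 0 (0.0%), with 55 higher and 9 lower at an unadjusted p under 0.05. The median difference was -0.0014. Strongly retained introns made up 20 of the 21, out of 31 measured in aar2, and the other was rgf2 intron 2. This contrast also shares its pwi1 values with the choice of those introns, so the overlap is a description. Without pwi1 replicate 1, 12 events were higher, as without either aar2 replicate. Over these 1520 events, each measured on both arrays of both strains, the 2 deletions thus had about the same median ratio and differed at a small number of them.

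The ratio fell for 3 events only. Beside irc3 intron 2, these were dps1 intron 1 (-1.079 and -0.81, mean -0.95 ± 0.28, adjusted p = 0.035), in a gene of the enzyme that makes the ubiquinone side chain, and ufd2 intron 1 (-0.82 and -1.34, mean -1.083, adjusted p = 0.044), in a gene of a ubiquitin chain elongation factor. All 3 calls were lost without either replicate. Intron 1 of fet5 had ratios of 0.76 and 1.07 in pwi1 (mean 0.92 ± 0.42, adjusted p = 0.17), against 0.35 to 3.46 on 11 other arrays with a median of 1.53. It was called in pwi1 with the pwi1 arrays alone (adjusted p = 0.027) and without the 6 arrays that went against their labels (adjusted p = 0.0087), with the same mean.

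Gene lists were read for their own introns and mRNA. Of the splicing factor genes, the ratio rose for 2 of 12 events of Sm and Lsm proteins (sme1 intron 1 and lsm7 intron 1, mean 0.98), for 1 of 5 of U2 snRNP and branch point factors (lea1 intron 1, the U2 A′ protein, 1.16), and for 0 of 2, 0 of 1, 0 of 4 and 0 of 6 of U1, U5 and tri-snRNP, late-acting and SR protein genes. At an unadjusted p under 0.05, 0 of these 13 were higher or lower. Only a small part of the splicing machinery was thus measured at its introns. The ratio rose for 3 of 10 events of nuclear RNA surveillance genes (rmn1 intron 1 at 1.84 and introns 1 and 2 of red1), 3 of 36 of ribosomal protein genes (rpl35 intron 1 at 1.74), 3 of 17 of ribosome biogenesis genes (rrp17 intron 1 at 1.89), 2 of 5 of core stress genes, 5 of 18 of autophagy genes (atg3 intron 2, atg5 introns 2 and 3, and atg7 intron 5 at 1.51 among them) and 8 of 31 of meiotic genes (mug64 intron 2, mcp7 intron 1 and spo20 intron 2 at 1.71 among them). It fell for none in these lists. Every named member of these lists with a mean under 2 lost its call without at least 1 of the replicates, as did mcp7 intron 1. These shares stand beside the 14.6% that rose over all events, and the small lists allow no finer reading.

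Few genes passed the test for total mRNA. By the exon probes, 2 of 4717 genes rose (0.0424%) and 1 fell (0.0212%), with 275 higher and 284 lower at an unadjusted p under 0.05. The gene that fell was pwi1 itself, as given above. The exon probe of atg3 read 2.07 and 1.97 (mean 2.02 ± 0.14, adjusted p = 1.61e-05), against -0.30 to 0.61 on the 18 other arrays. That of sec8, a subunit of the exocyst, read 1.15 and 1.17 (mean 1.16 ± 0.18, adjusted p = 0.045), against -0.31 to 0.65. Both genes lay above all other arrays on both pwi1 arrays. The atg3 call held without replicate 1 (adjusted p = 0.0020) and without replicate 2 (0.0019), and that of sec8 was lost in each case, as it was with each array centred on its exon probes. Without replicate 1, 2 genes rose and 2 fell, and without replicate 2, 1 rose and 1 fell. The counts also depended on the fit, since blocking on the replicate number gave 22 genes that rose and 28 that fell, and 8 rose and 11 fell without the 6 arrays that went against their labels. In the contrast with the other strains the difference was 1.84 ± 0.15 for atg3 and -3.01 ± 0.25 for pwi1, and these were the 2 genes called (0.0212% each way), with 59 higher and 66 lower at an unadjusted p under 0.05.

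For atg3 the probes differed along the gene. Its exon 3 probe rose by 2.02, its intron 2 probe by 3.77, and its intron 1 junction by 1.41 (1.26 and 1.56, adjusted p = 0.0094), whereas the junction of the strongly retained intron 2 read -0.15 and 0.28. In sec8 neither of the 2 introns measured on both arrays was called, and 4 of its junctions rose (introns 2, 3, 5 and 6, with means of 0.66 to 0.93). The 13 junctions that rose lay in 8 genes. Of these, sec8 gave 4, irc20 gave 3, and atg3, ers1, ecm14, pca1, xks1 (intron 1, 0.75 and 0.65) and pex6 (intron 1, 0.61 and 0.61) gave 1 each. Of the 8 genes, atg3, ecm14 and pca1 held a strongly retained intron at another position, and irc20 (intron 2) and ers1 (intron 7, intron probe 2.10 and 1.89, adjusted p = 2.69e-04) held an intron raised on the intron probe. In the whole set 34 of 1629 events (2.09%) were strongly retained and 212 of 1866 introns (11.4%) rose on the intron probe. Shares per gene were not counted, and the overlap was not tested.

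Genes next in order by total mRNA missed the threshold. At an adjusted p of 0.067 these were hsp16, a small heat shock protein gene (2.68 and 2.47), SPAC26F1.08c (1.03 and 1.18), ers1 (0.78 and 1.13), irc20 (0.68 and 0.80) and SPCC663.09c (1.02 and 0.71). For hsp16 the 17 other arrays spanned -0.35 to 3.37, so its pwi1 values lay within those of the other strains, while those of SPAC26F1.08c, at 1.03 and above, lay beyond the 0.64 of the highest other array. Of these 5 genes SPAC26F1.08c, ers1 and irc20 each held an intron that was high on the intron probe, as given above, and this overlap was not tested either.

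The exon probes of genes with a strongly retained intron spread over both sides of 0. They had a median of 0.15 (range -0.86 to 2.02), against -0.01 over all genes, and 22 of the 34 lay within 0.5 of wild type. Of the 34, 29.4% lay below 0 on average, against 52.5% of all genes. Only atg3 was called, in a fit that called 3 of 4717 genes. The exon probe of ecm14 read 0.89 and 0.49, that of wbp1 0.25 and 0.21, that of icp55 -0.24 and -0.02, and that of gta1 -0.23 and -0.16. Even icp55 and gta1, whose junctions fell most, thus had exon values near 0. The lowest was mug64, at -0.59 and -1.12. Over the 207 genes with an exon value and an event that rose, the median was -0.05.

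**Figure D5:**
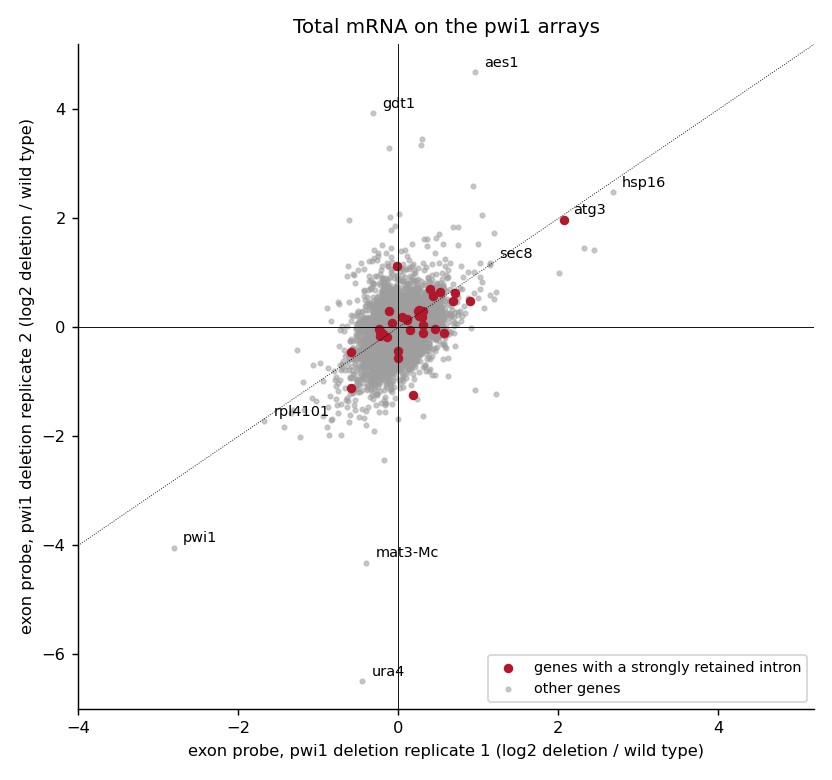
Exon probes as log2 pwi1 deletion over wild type on replicate 1 (x axis) against replicate 2 (y axis) for 4717 genes, with the 34 genes that hold a strongly retained intron in red and the dotted line at equal values. Of the red points, atg3 lies highest at 2.07 and 1.97. Among the other genes pwi1 lies at -2.81 and -4.04, and ura4 and mat3-Mc are low on replicate 2 only.

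Among the gene lists, ribosomal protein mRNAs had the lowest median on the exon probes, -0.61 over 56 genes measured on both arrays of 140 listed (-0.31 on replicate 1 and -0.83 on replicate 2). None of the 56 was called, and 21 were lower and 0 higher at an unadjusted p under 0.05. Against the mean of the other strains in place of wild type their median difference was -0.25. Ribosome biogenesis genes (98 genes, median -0.24) and Sm and Lsm genes (15 genes, median -0.26) also lay below the median of all genes, at -0.01, with none called. At an unadjusted p under 0.05, 18 of the ribosome biogenesis genes were lower and 1 higher, and 4 of the Sm and Lsm genes were lower and 0 higher. Core stress genes had a median of 0.19 over 32 genes, with none called, 8 higher and 2 lower at an unadjusted p under 0.05, and autophagy genes a median of 0.12 over 30 genes, of which atg3 rose. The stress list had a median of 0.32 on replicate 1 and 0.10 on replicate 2, so these shifts were of the order of the difference between the replicates.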

How the data were processed

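RNA of each deletion strain (Cy3) and of wild type (Cy5) was hybridised by the authors to 2-colour Agilent arrays, and the deposited values are log2 ratios of deletion over wild type for 15208 probes and 536 control spots on 20 arrays. Column medians lie near 0. For the background correction, the normalization and the choice of which values to leave empty, no method was stated in the labels, the file headers or the methods, and spot intensities were not used, so signal over background is unknown. A second deposited table held the same log2 values in all 304160 cells compared. Of 5281 loci, 5075 matched a RefSeq gene and 4232 carried a symbol, and other loci keep their systematic names.

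Probes were joined by locus and intron number (Python 3.11.15, pandas 2.3.3), and the splicing ratio was computed within each array. Values were tested with limma 3.58.1 in R 4.3.3 (lmFit and eBayes, 1 mean per strain over all 20 arrays, features with a value on both pwi1 arrays, Benjamini-Hochberg adjustment, threshold 0.05). Empty values were not imputed. Contrasts with the other strains used the mean of those with a value and the same prior variance. Standard errors pool the spread within the 8 strains that were arrayed in duplicate, and n = 2 throughout for pwi1. The fits were tested on simulated data. The alternatives were the pwi1 arrays alone, centring on exon probes, a trended robust variance, the replicate number as a block, leaving out each replicate or the 6 arrays that went against their labels, features on all 20 arrays, and other thresholds. Genes named are the 20 most retained introns, the events that fell, the other introns of genes with a retained intron, members of the gene lists past the test, and pwi1, fet5, ura4 and the mating-type genes. Members, lists and named genes were chosen with earlier results of these data known, and others are named where a count of 5 or fewer, a limit or a contrast needed them. No sequences are shown.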

Additional observations from a re-analysis of the deposited data

Results flagged for a closer look

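The events that differed between pwi1 and the other deletion strains, by the contrast of their means, are repeated here as values. The splicing ratio was higher in pwi1 than in the mean of the other strains for 35 events and lower for 1, and it was higher than in aar2 for 21. The differences on the log2 scale were 5.55 for ecm14 intron 1, 4.07 for SPBC21B10.09 intron 2, 4.02 for gup1 intron 2, 4.01 for wbp1 intron 1, 3.76 for mms19 intron 3, 3.73 for irc3 intron 3, 3.53 for icp55 intron 3, 3.49 for rad17 intron 1, 3.44 for atg3 intron 2, 3.38 for ucp12 intron 3 and 3.16 for tfa1 intron 1. They were 3.07 for twf1 intron 5, 3.06 for dca7 intron 4, 2.82 for pca1 intron 2, 2.78 for mug64 intron 2, 2.59 for sme1 intron 1, 2.499 for mks1 intron 1, 2.41 for wdr7 intron 2, 2.25 for gta1 intron 1 and 2.07 for nSPAC6F6.16c intron 2. For irc3 intron 2 the difference was -1.18. For total mRNA it was 1.84 for atg3 and -3.01 for pwi1, the deleted gene.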

How the results depend on the processing

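No result changed sign under any alternative run. Of the 34 strongly retained introns, 31 were called without either pwi1 replicate and all measured ones under every other alternative (33 of 33 with the replicate block, 7 of 7 on features of all 20 arrays). The counts of calls depended on the fit far more than these introns did, and the cause was not tested beyond what each setting says. With the pwi1 arrays alone, the splicing ratio rose for 451 events and fell for 7 (238 and 3 as reported), pre-mRNA rose for 588 and fell for 22 (212 and 0), mature mRNA rose for 89 and fell for 362 (13 and 36), and total mRNA rose for 10 and fell for 10 (2 and 1). Without the 6 arrays that went against their labels the same counts were 510 and 9, 515 and 7, 38 and 134, and 8 and 11, and in pwi1 minus the other strains 74 and 7 (35 and 1) and minus aar2 33 higher (21). Leaving out 1 pwi1 array gave 40 to 43 ratios that rose and 0 that fell, 37 to 40 for pre-mRNA that rose, 0 to 2 and 3 to 9 for mature mRNA, 1 to 2 and 1 to 2 for total mRNA, and 16 to 23 and 0 to 1 for pwi1 minus the other strains. Leaving out 1 pwi1 or aar2 array gave 12 to 19 events higher and 0 to 1 lower in pwi1 minus aar2, and leaving out 1 pwi1 array gave 1 to 2 genes lower in total mRNA minus the other strains. With a trended, robust variance 137 introns rose, 21 junctions and 1 gene fell, 4 genes rose and 2 rose against the other strains. With arrays centred on exon probes 1 gene rose. On features of all 20 arrays, which left 276 events, 75 ratios rose and 1 fell, 73 introns rose, 8 junctions rose and 19 fell, and 2 events were higher and 0 lower against the other strains and 2 higher against aar2. At an adjusted p under 0.01 the ratio rose for 71 and fell for 0, 66 introns rose, 6 junctions rose and 13 fell, 1 gene rose, and 0 events were lower against the other strains. With a change of at least 1 required, 1 ratio fell and 3 junctions rose. A limit of 1.5 or 2.5 gave 85 or 22 strongly retained introns.

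The labels number the replicates but give no batch. Over the 28 pairs of strains with 2 arrays, deviations of same-numbered arrays from their strain means correlated above 0.1 in 27 pairs for the ratio, 24 for intron, 25 for junction and 26 for exon probes, and in all 7 pairs that include pwi1 for each of these. Same-numbered arrays thus often deviated together, and whether they shared a batch was not tested. With the replicate block the ratio rose for 307 events and fell for 6, pre-mRNA fell for 1 intron, mature mRNA rose for 54 junctions and fell for 167, and total mRNA rose for 22 genes and fell for 28. With 2 arrays and unknown signal over background, differences smaller than the gap between the replicates (median 0.339 for the ratio, 0.253 for exon probes) were not resolved for single features.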

Other observations

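Junction probes that join exons across a skipped exon were also on the arrays. Of these, 250 had a value on both pwi1 arrays, with a median of -0.15. By limma 0 of the 250 were called, and 7 passed an unadjusted p under 0.05, 2 of them higher in pwi1 and the rest lower.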
